A study of Mus musculus with 12 samples.

Results

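The genes of the AMPA and kainate classes of ionotropic glutamate receptor were followed in a survey of non-CG methylation (mCH) in mouse cortex. These are the 4 AMPA receptor genes Gria1 to Gria4 and the 5 kainate receptor genes Grik1 to Grik5, taken by name and not by any measured value. All 9 were found among 23882 named genes, and all 9 were among the 19826 that had at least 500 non-CG cytosine calls in every library and could be tested. Whole-genome bisulfite sequencing, in which unmethylated cytosines are read as thymine, had been run on cortical DNA of C57BL/6 mice in 12 libraries. The level of a gene is the percentage of the non-CG calls over its transcript that were methylated. At postnatal day 40 (P40) there were 4 libraries labelled miR29 KO and 4 of wild-type (WT) genotype. At 4 months there were 2 libraries labelled Dnmt3a mi5, whose titles read DNMT3AmiR29MUT, and 2 WT libraries. The labels do not say which miR-29 genes were deleted or in which cells, nor what the mi5 allele changes in Dnmt3a, the gene of a de novo DNA methyltransferase. The replicates are labelled only as separate samples, so that p-values measure spread between samples, which may be technical in part.

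AMPA receptors are tetramers that carry most of the fast excitatory current at cortical synapses, and Gria1 to Gria4 encode their subunits GluA1 to GluA4. Kainate receptors are built from the subunits encoded by Grik1 to Grik5, act on both sides of the synapse, and modulate transmitter release as well as postsynaptic current. Methylation at non-CG sites accumulates in neurons after birth, is written mainly by DNMT3A, and is generally higher over genes that are little transcribed in the cells that carry it. Members of the miR-29 family pair through a shared seed with target messages, among which Dnmt3a is a known one.

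The miR29 KO label refers to this family, so its mature 3p strands are shown, from RefSeq on GRCm38.p6, with bases 2 to 8, the seed, in capitals.
mmu-miR-29a-3p: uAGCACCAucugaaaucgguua
mmu-miR-29b-3p: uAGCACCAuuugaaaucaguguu
mmu-miR-29c-3p: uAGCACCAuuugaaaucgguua
All of these strands carry the seed AGCACCA. The miR-29a strand lies at chr6:31062673-31062694 on the minus strand, and the miR-29c strand at chr1:195037600-195037621 on the plus strand. The miR-29b strand is encoded at chr6:31063025-31063047 on the minus strand and at chr1:195037091-195037113 on the plus strand. Calls over the 4 hairpins together numbered 26, 69, 54 and 6 in the miR29 KO libraries, against 224, 137, 121 and 244 in the WT libraries at P40. The Dnmt3a mi5 libraries had 129 and 106 such calls and the 4-month WT libraries 151 and 200. The summed coverage of the hairpins was thus lower in every miR29 KO library than in any other library, and was not 0 in any of them.

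Gene calls per library totalled 399564631 to 732986400, and the 9 receptor genes were deeply covered, with 14934 to 469653 calls per gene and library. The 95% Wilson interval, which covers counting error only, was at its widest for Grik5 in Dnmt3a mi5 replicate 1, from 0.974% to 1.31%, and at its narrowest, 0.0613 percentage points, for Grik2 in WT replicate 1 at P40. The mean level over all tested genes was 1.72% to 2.46% in miR29 KO and 1.28% to 1.54% in WT libraries at P40, and 2.31% to 2.35% in Dnmt3a mi5 and 1.31% to 1.32% in WT libraries at 4 months. The receptor genes are therefore given both as measured and relative to this shift. In whole cortex, more mCH per cell and more cells of a type that carries mCH cannot be told apart, and bisulfite data give no expression with which to check the cell types present. In 1 library of each group Ddx3y, Kdm5d and Eif2s3y, which are Y-linked, together had 413 to 1353 calls, against 19079 to 31279 in the other 8, which touches X-linked Gria3.

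The 9 genes kept a nearly fixed order of mCH in the 12 libraries. Ranked from the highest level, Grik1 and Grik4 held ranks 1 and 2 in all of them, Grik3 rank 3, Gria4 and Grik2 ranks 4 and 5, and Gria1 rank 6. Gria3, Gria2 and Grik5 shared ranks 7 to 9. In miR29 KO libraries the mean level fell along this order, with Grik1 at 3.75% ± 0.55, Grik4 at 3.60% ± 0.44, Grik3 at 3.32% ± 0.42, Grik2 at 2.13% ± 0.35 and Gria4 at 1.95% ± 0.24 (SD, n = 4). Gria1 followed at 1.82% ± 0.17, Gria3 at 1.30% ± 0.31, Gria2 at 0.872% ± 0.128 and Grik5 at 0.796% ± 0.155 (SD, n = 4). Among neighbours in that order, the libraries of Grik3 and Grik2 and those of Gria1 and Gria3 did not overlap, and those of the other neighbours did. In P40 WT libraries the same 2 gaps were free of overlap, and so was that between Gria2 and Grik5. Set against all tested genes, Grik1 and Grik4 lay above 86.8% to 92.7% of genes in the 4 groups, and Grik5 above only 12.2% to 20.6%, so that kainate receptor genes stood near both ends of the order of all genes.

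**Figure D1:**
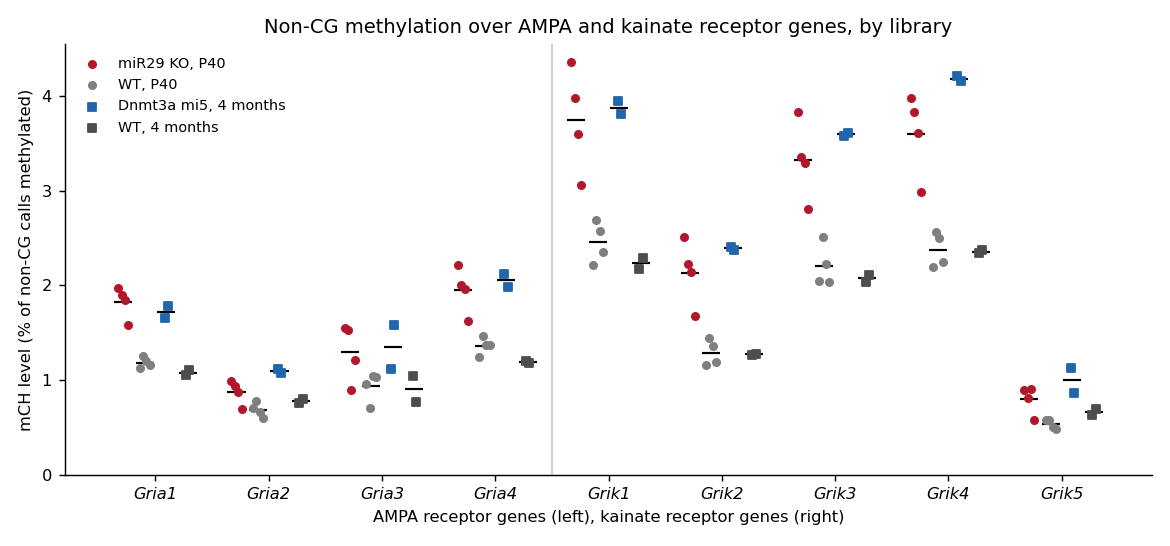
mCH level (percent of non-CG calls methylated) of each AMPA and kainate receptor gene, with 1 point per library and a bar at each group mean; each gene shows miR29 KO and WT at P40 (circles), then Dnmt3a mi5 and WT at 4 months (squares). Grik1, Grik3 and Grik4 sit at 2.81% or more in every mutant library, while Gria2 and Grik5 stay at or below 1.13% in all 12.

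The P40 comparison asks what loss of miR-29 does to mCH over these genes. Of the 9 genes, 7 rose in miR29 KO cortex and none fell, where 76.4% of all tested genes rose and 0.0504% fell (quasi-binomial model moderated with limma, Benjamini-Hochberg adjusted p under 0.05 over all genes). The median log2 odds ratio of the 9 genes was 0.61, and that of all tested genes 0.65. By class, 2 of 4 AMPA receptor genes and 5 of 5 kainate receptor genes rose, and the 7 of 9 together stand near the share of all genes. The libraries of miR29 KO lay wholly above those of WT for 6 of the 9 genes, as for 57.1% of all genes.

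Gria1, which encodes the GluA1 subunit of activity-regulated AMPA receptors, stood at 1.97%, 1.90%, 1.84% and 1.58% in miR29 KO libraries, against 1.12%, 1.25%, 1.20% and 1.16% in WT libraries at P40. The groups did not overlap, and miR29 KO replicate 4 was the lowest of its group. The log2 odds ratio was 0.64 ± 0.12 (SE; adjusted p = 0.000156). Gria4, the gene of GluA4, a subunit known from fast-spiking interneurons, stood at 2.21%, 2.0%, 1.96% and 1.63% in miR29 KO libraries, against 1.25%, 1.47%, 1.37% and 1.37% in WT libraries. It too rose without overlap, by a log2 odds ratio of 0.54 ± 0.13 (SE; adjusted p = 0.000909).

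Gria2 encodes GluA2, the subunit whose edited messenger RNA makes AMPA receptors poorly permeable to calcium. Its level was 0.989%, 0.935%, 0.870% and 0.694% in miR29 KO libraries, against 0.701%, 0.781%, 0.666% and 0.597% in WT libraries at P40. Replicate 4 of the miR29 KO group lay inside the WT range, and the other 3 lay above it. The log2 odds ratio, 0.35 ± 0.18 (SE), was the smallest of the 9 genes and did not pass (adjusted p = 0.0802). Without that library it was 0.44 and passed (adjusted p = 0.00461).

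Gria3, the X-linked gene of GluA3, stood at 1.54%, 1.53%, 0.892% and 1.21% in miR29 KO libraries, against 0.959%, 0.710%, 1.04% and 1.03% in WT libraries at P40. The groups overlapped at replicate 3 of miR29 KO, and the other 3 miR29 KO libraries lay above every WT library. The log2 odds ratio was 0.45 ± 0.21 (SE; adjusted p = 0.0586, not passed), and it moved with the libraries that have few Y-linked calls. Without miR29 KO replicate 3 it was 0.70 (adjusted p = 0.00564), and without WT replicate 2, the WT library with few such calls, 0.27 (adjusted p = 0.278).

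Grik1 encodes GluK1, a kainate receptor subunit prominent in interneurons, and Grik2 encodes GluK2, a widespread subunit of the forebrain. Grik1 stood at 4.35%, 3.98%, 3.60% and 3.06% in miR29 KO libraries, against 2.22%, 2.69%, 2.57% and 2.35% in WT libraries at P40. Grik2 had 2.51%, 2.23%, 2.14% and 1.67% in miR29 KO libraries and 1.16%, 1.44%, 1.36% and 1.19% in WT libraries. Neither gene overlapped between the groups. Both rose, Grik1 by a log2 odds ratio of 0.64 ± 0.11 (SE; adjusted p = 8.32e-05) and Grik2, with the largest rise of the 9 genes, by 0.76 ± 0.14 (SE; adjusted p = 0.000120).

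Grik3, the gene of GluK3, whose receptors need high glutamate to open, stood at 3.83%, 3.36%, 3.29% and 2.81% in miR29 KO libraries, against 2.05%, 2.51%, 2.23% and 2.04% in WT libraries. Its log2 odds ratio was 0.61 ± 0.11 (SE; adjusted p = 8.09e-05), again without overlap. Grik4 and Grik5 encode GluK4 and GluK5, the high-affinity subunits that form working channels only together with GluK1 to GluK3. Grik4 had 3.98%, 3.83%, 3.61% and 2.98% in miR29 KO libraries and 2.19%, 2.56%, 2.50% and 2.24% in WT libraries, and rose by 0.63 ± 0.10 on the log2 odds scale (SE; adjusted p = 5.93e-05). Grik5 had 0.899%, 0.807%, 0.904% and 0.573% in miR29 KO libraries and 0.581%, 0.578%, 0.504% and 0.484% in WT libraries. It rose by 0.57 ± 0.19 (SE; adjusted p = 0.0105), with replicate 4 of the miR29 KO group inside the WT range. Its call was lost with only the libraries that cover the Y-linked genes (adjusted p = 0.134).

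The 4-month comparison asks the same of the Dnmt3a mi5 allele, with 2 libraries a group. Of the 9 genes 6 rose and none fell, where 58.8% of all tested genes rose and 0% fell by the same model, and the median log2 odds ratio was 0.80 over the 9 genes and 0.83 over all genes. Both Dnmt3a mi5 libraries lay above both WT libraries for all 9 genes, as for 86.2% of all genes. Leaving out any 1 of the 4 libraries of this age left 1 in its group. Fewer of the 9 genes and of all genes then passed each time, fewest without WT replicate 1. The median log2 odds ratio of all genes was 0.81 to 0.84 in these fits, against 0.83 with all libraries. Gria1, Gria4, Grik1, Grik2, Grik3 and Grik4 rose, and Gria2, Gria3 and Grik5, the genes of lowest mCH, did not pass.

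Gria1 stood at 1.66% and 1.78% in Dnmt3a mi5 libraries, against 1.05% and 1.10% in WT libraries at 4 months, a log2 odds ratio of 0.69 ± 0.23 (SE; adjusted p = 0.0157). This call was lost when any 1 of these 4 libraries was left out (adjusted p of 0.0506 to 0.105). Gria4 had 2.12% and 1.98% in Dnmt3a mi5 libraries and 1.20% and 1.18% in WT libraries, and its rise of 0.80 ± 0.21 (SE; adjusted p = 0.00462) was lost, among left-out libraries, only without WT replicate 1 (adjusted p = 0.0511). Gria2 had 1.12% and 1.07% in Dnmt3a mi5 libraries and 0.756% and 0.799% in WT libraries (log2 odds ratio 0.50 ± 0.25, SE; adjusted p = 0.0855). Gria3 had 1.11% and 1.58% in Dnmt3a mi5 libraries and 1.04% and 0.767% in WT libraries (0.56 ± 0.31, SE; adjusted p = 0.118). The 2 Dnmt3a mi5 libraries differed in Gria3 by more than the group means did. Its log2 odds ratio was 0.88 without Dnmt3a mi5 replicate 1, 0.37 without Dnmt3a mi5 replicate 2 and 0.29 without WT replicate 2, none past the threshold (adjusted p of 0.0720 to 0.562).

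Among kainate receptor genes, Grik1 stood at 3.94% and 3.81% in Dnmt3a mi5 libraries, against 2.17% and 2.29% in WT libraries at 4 months, a rise of 0.82 ± 0.18 (SE; adjusted p = 0.00303). Grik2 had 2.40% and 2.38% in Dnmt3a mi5 libraries and 1.27% and 1.28% in WT libraries, the largest rise of the 9 genes at 0.93 ± 0.21 (SE; adjusted p = 0.00315). The replicates of Grik2 differed by far less than the groups did. Grik3 had 3.58% and 3.61% in Dnmt3a mi5 libraries and 2.04% and 2.11% in WT libraries (0.82 ± 0.20, SE; adjusted p = 0.00406). Grik4 reached 4.21% and 4.15% in Dnmt3a mi5 libraries, against 2.34% and 2.37% in WT libraries (0.85 ± 0.18, SE; adjusted p = 0.00303). Grik4 was thus the most methylated of the 9 genes in both groups of this age, above Grik1 in 2 of 2 libraries each. Grik5 had 1.13% and 0.859% in Dnmt3a mi5 libraries and 0.626% and 0.699% in WT libraries, with a log2 odds ratio of 0.58 ± 0.36 (SE; adjusted p = 0.163) that was 0.38 without Dnmt3a mi5 replicate 1. Without miR29 KO replicate 4, which enters only through the shared estimate of spread, Gria2 (adjusted p = 0.0159) and Grik5 (adjusted p = 0.0472) passed at 4 months, as they did when only the 4-month libraries were fitted (adjusted p of 9.09e-05 and 0.00636).

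**Figure D2:**
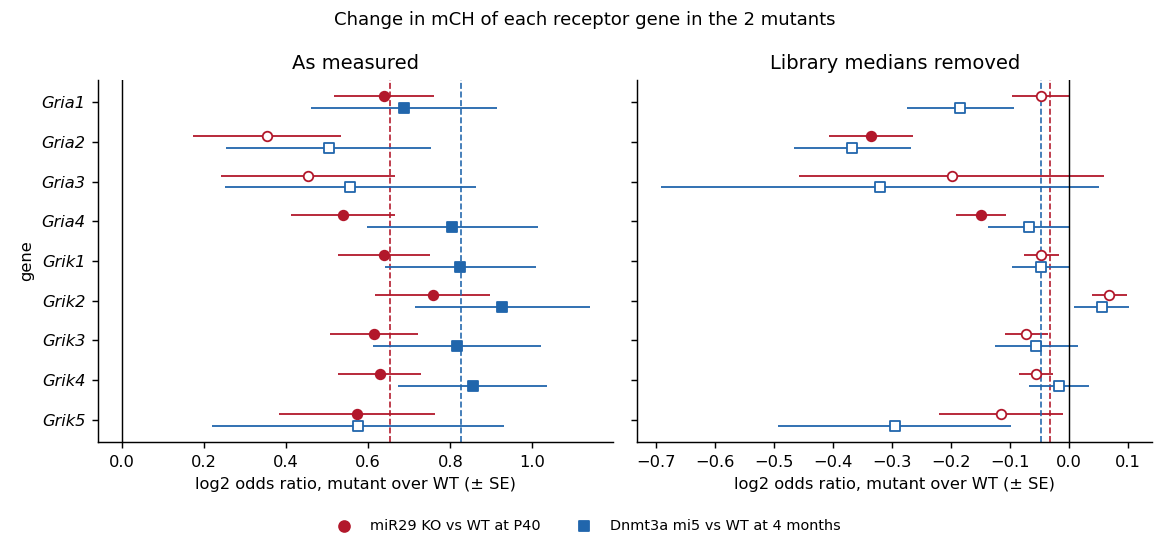
log2 odds ratio of mCH, mutant over WT, with its standard error, for each receptor gene in miR29 KO at P40 (circles) and Dnmt3a mi5 at 4 months (squares), as measured (left) and with each library's median gene removed (right); filled symbols have an adjusted p under 0.05 and dashed lines mark the median of all tested genes. All 9 genes lie right of 0 as measured, and Gria2 lies farthest to the left of the dashed lines once the common shift is removed, at -0.34 and -0.37.

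The rise was shared by most genes of the genome. When each library's median gene was removed, the all-gene median was -0.032 at P40 and -0.046 at 4 months. Of the 9 genes 1, Grik2, was above 0 in both mutants, where 42.1% of all genes were above 0 at P40 and 42.1% at 4 months. Relative to this shift, 2 of the 9 genes lay below it in miR29 KO at P40, where 3.59% of all genes lay below and 1.01% above, and none of the 9 lay above. They were Gria2 (-0.34 ± 0.072, SE; adjusted p = 0.00933) and Gria4 (-0.15 ± 0.042, SE; adjusted p = 0.0455), both AMPA receptor genes, whose log2 odds ratios were thus smaller than that of the median gene. The difference of Gria2 was lost without P40 WT replicate 1 (adjusted p = 0.0537) and with only the libraries that cover the Y-linked genes (adjusted p = 0.0814). That of Gria4 held only without miR29 KO replicate 4 or P40 WT replicate 3: it was lost without any 1 of the other 10 libraries (adjusted p of 0.0508 to 0.151) and when pooled levels replaced medians (adjusted p = 0.0557). Grik2 was at 0.069 ± 0.030 (SE; adjusted p = 0.200) and Grik1, Grik3 and Grik4 at -0.072 to -0.047, none of them past the threshold.

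In Dnmt3a mi5 at 4 months, 0 of the 9 genes differed from the common shift by this limma-moderated model, where 0.0353% of all genes lay below it and 0% above. At an unadjusted p under 0.05 there was 1 of the 9, Gria2, at -0.37 ± 0.099 (SE; adjusted p = 0.203 by the limma-moderated model), beside 9.08% of all genes. Gria2 was thus the gene of the 9 with the lowest value relative to the shift in both mutants, though past the threshold only at P40.

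The log2 odds ratio varied with the WT level of a gene, so each member was also set against genes of like level, in 10 equal groups ranked in the WT libraries of the other age. At P40 the median of the 1982 genes in the group of Gria2 was 0.56, and in that of Grik1 0.71. Gria2 had a higher log2 odds ratio than 16.5% of the genes in its group, Gria3 than 15.2%, Grik3 than 19.7%, Gria4 than 19.9%, Grik1 than 25.9%, Grik4 than 34.2% and Gria1 than 39.7%. Grik5 exceeded 51.8% and Grik2 65.5% of theirs. At 4 months the same placing was 16.6% for Gria3, 18.7% for Gria2, 22.5% for Gria1, 28.9% for Grik3, 35.1% for Gria4, 36.8% for Grik1, 44.8% for Grik4, 45.7% for Grik5 and 64.8% for Grik2. Gria2 and Gria3 had the lowest placings at each age and Grik2 the highest, while the other genes of both classes lay between them, as a description without a test.

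Markers of cortical cell types give a setting for Gria2, since bisulfite data hold no expression. Of 4 excitatory neuron markers (Slc17a7, Neurod6, Tbr1 and Camk2a), 0 rose in miR29 KO at P40 by the limma-moderated model, with a median log2 odds ratio of 0.24 and a range of 0.062 to 0.42. At an unadjusted p under 0.05 there was 1 of the 4, beside 78.3% of all genes. By limma on log2 values 1 rose, beside 15203 of 19826 genes, and by limma on the percentage 0, beside 15020. Relative to the common shift their median was -0.45, with a range of -0.62 to -0.26. Past the threshold 1 of 4 lay below it, as did 3.59% of all genes. Of 5 tested inhibitory neuron markers 4 rose (median 0.62, range -0.16 to 0.91), as did 5 of 5 for oligodendrocytes (0.68), 5 of 5 for astrocytes (0.70), 4 of 4 for microglia (0.79) and 4 of 4 for the vasculature (0.74). Beside these counts, 76.4% of all tested genes rose at P40. The value of Gria2 lay within the range of the excitatory and of the inhibitory markers, as measured and relative to the shift, where the inhibitory markers ran from -0.87 to 0.23. In Dnmt3a mi5 at 4 months the median was 0.59 for excitatory markers (range 0.42 to 0.89) and 0.76 for inhibitory markers (range -0.50 to 0.99), and Gria2 at 0.50 lay within both. Of the 4 excitatory markers 0 rose there by the limma-moderated model, where 58.8% of all genes rose. By limma on log2 values 1 rose, beside 14566 of 19826 genes, and by limma on the percentage 2, beside 14339. Medians were 1.14 for oligodendrocytes, 0.75 for astrocytes, 1.01 for microglia and 0.95 for the vasculature, beside 0.83 for all genes. The part of either neuron class in the value of Gria2 was not tested.

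The change in Dnmt3a mi5 minus that in miR29 KO was tested in the same model, in which allele and age cannot be told apart. None of the 9 genes differed, nor did any tested gene (0% higher, 0% lower), while 289 genes, 0 of the 9 among them, had an unadjusted p under 0.05. limma on the percentage called 3 genes and limma on log2 values 0, none of the 9 among them. The estimates of the 9 genes were all positive, from 0.0035 for Grik5 to 0.27 ± 0.24 (SE) for Gria4, and the median over all genes was 0.18. For Gria2 the difference was 0.15 ± 0.31 (SE; adjusted p = 0.998), which does not show that the mutants act alike.

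In WT cortex, 0 of the 9 genes differed between 4 months and P40 by the limma-moderated model, where 0.131% of all genes were higher at 4 months and 0% lower; 0 of the 9 had an unadjusted p under 0.05, and both limma runs gave 0. The estimates, 4 months over P40, ran from -0.20 ± 0.19 for Gria4 to 0.29 ± 0.30 for Grik5 (SE). Grik5 averaged 0.662% ± 0.052 at 4 months and 0.537% ± 0.050 at P40 (SD, n = 2 and 4) and was the 1 gene whose 4-month libraries lay wholly above, as for 6.03% of all genes, while Gria1 and Gria4 lay wholly below, as for 12.1%. With library medians removed, 0 of the 9 differed, where 1.45% of all genes were higher and 0.101% lower, and 2 of the 9 had an unadjusted p under 0.05, as did 10.4% of all genes. These were Gria2 (0.27, adjusted p = 0.198) and Grik5 (0.39, adjusted p = 0.372). These WT libraries also serve both mutant comparisons, and age cannot be told apart from any difference in how the libraries of each age were made.

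The kainate class carried more mCH than the AMPA class in all 12 libraries. The mean of the 5 kainate receptor genes was 2.72% ± 0.37 in miR29 KO and 1.77% ± 0.15 in WT libraries at P40, while that of the 4 AMPA receptor genes was 1.49% ± 0.18 in miR29 KO and 1.04% ± 0.025 in WT (SD, n = 4 each). At 4 months the kainate mean was 3.01% ± 0.066 in Dnmt3a mi5 and 1.72% ± 0.044 in WT libraries, and the AMPA mean 1.55% ± 0.071 in Dnmt3a mi5 and 0.986% ± 0.036 in WT (SD, n = 2 each). Within the kainate class, Grik5 lay below every AMPA gene on average in all 4 groups. Grik2 lay below Gria4 in P40 WT, at 1.29% against 1.36%, in 4 of 4 libraries, and above it in the other groups. The gap, AMPA minus kainate, was -1.23 percentage points in miR29 KO and -0.73 in P40 WT libraries, and -1.45 in Dnmt3a mi5 and -0.73 in 4-month WT libraries. As a ratio, kainate over AMPA, it was 1.83 ± 0.091 in miR29 KO and 1.70 ± 0.12 in P40 WT, and 1.94 ± 0.13 in Dnmt3a mi5 and 1.75 ± 0.11 in 4-month WT libraries, with ranges that overlapped at P40 and not at 4 months. The AMPA mean in miR29 KO was 1.43 times and the kainate mean 1.53 times that in WT, beside 1.56 times for the mean of all genes. In Dnmt3a mi5 the factors were 1.58 for AMPA, 1.75 for kainate and 1.77 for all genes. These class means are a description and were not tested.

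**Figure D3:**
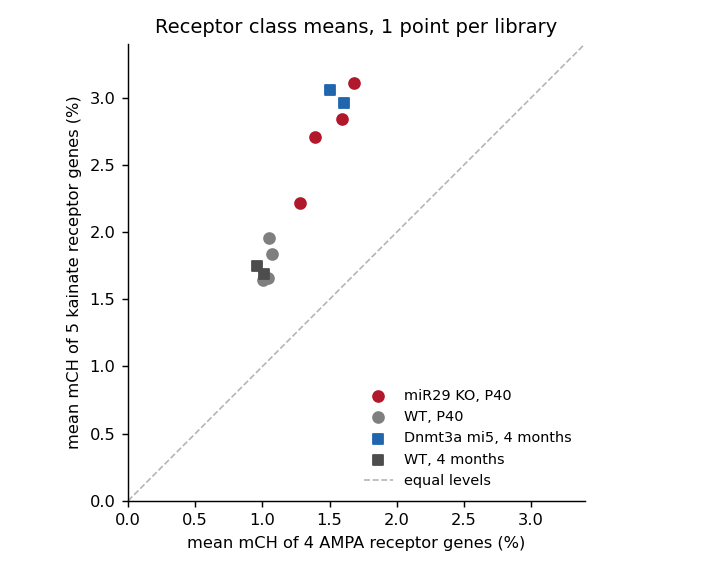
Mean mCH of the 4 AMPA receptor genes (horizontal, percent) against that of the 5 kainate receptor genes (vertical, percent), with 1 point per library: miR29 KO and WT at P40 (circles), Dnmt3a mi5 and WT at 4 months (squares); the dashed line marks equal levels. All 12 libraries lie above the line, and the 6 mutant libraries lie above and to the right of the 6 WT libraries.

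The level of X-linked Gria3 within its class divided the libraries by their coverage of Y-linked genes. Its level over the mean of Gria1, Gria2 and Gria4 was 0.572 in miR29 KO replicate 3, 0.609 in P40 WT replicate 2, 0.681 in Dnmt3a mi5 replicate 1 and 0.748 in 4-month WT replicate 2, the 4 libraries with few Y-linked calls. In the other 8 libraries it was 0.896 to 1.03, with no overlap. Its calls over the mean calls of the other 8 receptor genes were 0.861 to 1.01 in those 4 libraries and 0.425 to 0.507 in the other 8. Relative to the other receptor genes, Gria3 thus had more calls where Y-linked genes were nearly absent, and was less methylated there. Calls also depend on how many non-CG sites a gene holds, so the ratio itself does not measure equal depth. Within the libraries that cover Y-linked genes, Gria3 stood at 1.54%, 1.53% and 1.21% in miR29 KO, against 0.959%, 1.04% and 1.03% in WT at P40, which did not overlap. In the remaining pair it was 0.892% in miR29 KO and 0.710% in WT. The log2 odds ratio in the libraries covering Y-linked genes was 0.52 (adjusted p = 0.0706). At 4 months Gria3 was 1.58% in Dnmt3a mi5 and 1.04% in WT with Y-linked coverage, and 1.11% in Dnmt3a mi5 and 0.767% in WT without. The same ratio for Gria1 overlapped, at 1.02 to 1.30 in the 4 libraries and 1.08 to 1.36 in the other 8, as did those of Gria2 and Gria4.

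**Figure D4:**
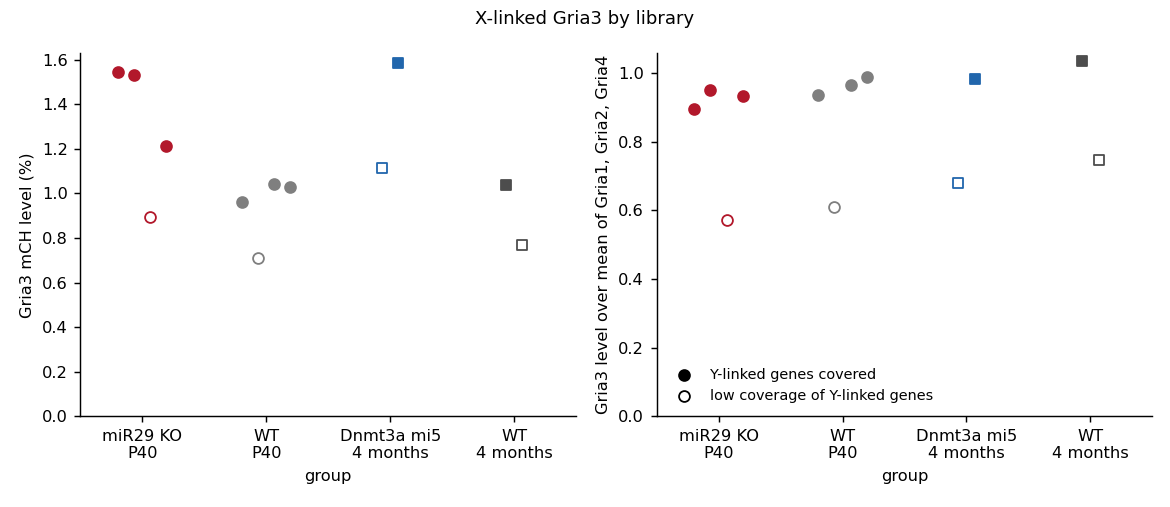
Level of Gria3 in percent (left) and its ratio to the mean of Gria1, Gria2 and Gria4 (right) in every library of miR29 KO and WT at P40 and Dnmt3a mi5 and WT at 4 months; open symbols mark the 4 libraries with few calls over Y-linked genes. The open symbols lie at ratios of 0.572 to 0.748 and the filled ones at 0.896 to 1.03, in every group.

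Replicates of a group moved together across the receptor genes. Replicate 1 of miR29 KO was the highest of its group for 8 of the 9 genes and replicate 4 the lowest for 8, Gria3 being lowest in replicate 3 and Grik5 highest there. Replicate 2 of P40 WT was the highest of its group for 7 genes. The levels of all tested genes followed the same order in miR29 KO, with means of 2.46% in replicate 1 and 1.72% in replicate 4.

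Where a gene has a shorter transcript in the tables, calls outside it can be compared with calls inside, assuming that the shorter lies within the longer. At least 1000 calls outside were required in every library, which left out the shorter transcript of Gria1. For Gria4 the outside portion was the lower in all 12 libraries, at 1.87% ± 0.23 in miR29 KO and 1.28% ± 0.085 in P40 WT libraries, while the shorter transcript had 1.97% ± 0.25 in miR29 KO and 1.38% ± 0.094 in WT (SD, n = 4 each). For Gria2 the outside portion was the higher in all 12, at 1.25% ± 0.28 in miR29 KO and 0.999% ± 0.295 in P40 WT, over 3085 to 4521 calls a library, against 0.850% ± 0.123 in miR29 KO and 0.669% ± 0.067 in WT for the shorter transcript. Grik1 and Gria3 were mixed. The outside portion of Grik1 was the higher in 3 of 4 miR29 KO and 3 of 4 P40 WT libraries, and in 2 of 2 Dnmt3a mi5 and 1 of 2 WT libraries at 4 months. That of Gria3 was the higher in 1 of 4 miR29 KO and 2 of 4 P40 WT libraries, and in 1 of 2 Dnmt3a mi5 and 2 of 2 WT libraries at 4 months.

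A list of 30 genes whose products bind, traffic or edit these receptors was set beside them, of which 29 could be tested (C1ql2 had too few calls). In miR29 KO at P40, 23 of 29 rose and none fell, where 76.4% of all genes rose. The median log2 odds ratio of the list was 0.61, beside 0.65 for all genes. In Dnmt3a mi5 at 4 months 21 of 29 rose and none fell, where 58.8% of all genes rose. The median of the list was then 0.77, beside 0.83. By role at P40, 6 of 6 transmembrane AMPA receptor regulatory proteins (the Cacng genes) rose, as did 5 of 6 other AMPA auxiliary subunits, both kainate auxiliary subunits, 6 of 9 trafficking genes, 1 of 2 RNA editing enzymes and 3 of 4 secreted organisers.

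Neto2, an auxiliary subunit that slows the decay of kainate receptor currents, had the largest rise of the list at P40. It averaged 2.17% ± 0.38 in miR29 KO and 1.12% ± 0.12 in WT libraries (SD, n = 4 each; log2 odds ratio 0.98 ± 0.15, SE, adjusted p = 5.75e-05). Cacng4, a regulatory subunit of AMPA receptors, averaged 4.07% ± 0.65 in miR29 KO and 2.27% ± 0.24 in WT (0.88, adjusted p = 5.75e-05), and Grip2, a scaffold that binds AMPA receptor tails, 2.84% ± 0.34 in miR29 KO and 1.58% ± 0.19 in WT (0.87, adjusted p = 5.75e-05). With library medians removed, Neto2 (0.29, adjusted p = 0.0142) and Cacng4 (0.20, adjusted p = 0.0327) lay above the common shift at P40, and Nsf, whose product binds GluA2, below it (-0.21, adjusted p = 0.0243). At the other end stood the neuronal pentraxin Nptx1 (0.27, adjusted p = 0.226), Cpt1c (0.21, adjusted p = 0.493) and the cornichon Cnih2, which averaged 0.235% ± 0.081 in miR29 KO and 0.312% ± 0.069 in WT (-0.37, adjusted p = 0.438). Cnih2 lay near the floor of the data. The 1st percentile of gene levels was 0.258% to 0.287% in miR29 KO and 0.227% to 0.258% in P40 WT libraries. Nptx1 passed without miR29 KO replicate 4 (adjusted p = 0.0297) and Cpt1c without WT replicate 2 (adjusted p = 0.0333).

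At 4 months the largest values were those of Grip2 (1.09, adjusted p = 0.00316), the scaffold Pick1 (1.08, adjusted p = 0.0197) and Neto2 (1.02, adjusted p = 0.00461). Pick1, which binds GluA2, averaged 1.69% ± 0.38 in Dnmt3a mi5 and 0.807% ± 0.191 in WT libraries (SD, n = 2 each). Its call was lost without Dnmt3a mi5 replicate 1 (adjusted p = 0.162) and without either WT library (adjusted p of 0.0633 and 0.135), and that of Neto2 without WT replicate 1 (adjusted p = 0.0558). The smallest were Cacng8 (0.60, adjusted p = 0.113), Cacng3 (0.56, adjusted p = 0.0487) and Cpt1c (0.36, adjusted p = 0.637). Cacng3 averaged 1.78% ± 0.040 in Dnmt3a mi5 and 1.21% ± 0.0052 in WT, and its call was lost without any 1 of the 12 libraries except miR29 KO replicates 1 and 4 (adjusted p of 0.0541 to 0.162).

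Outside the list, the gene whose 12 levels were most like those of each member was found by the root mean square difference of log2 percent. Grik1 was closest to Sntg2 (0.0297), Grik4 to Ptprg (0.0317), Grik2 to Dis3l2 (0.0400) and Grik3 to Greb1l (0.0436). Gria4 was closest to Arid1b (0.0675), Gria2 to Pcdhga2 (0.0717), Gria1 to Ralgps1 (0.0898), Grik5 to Lrif1 (0.109) and Gria3 to Zc3h12b (0.148). In raw distance, kainate receptor genes other than Grik5 had the nearer matches. Their median distance to all candidate genes was also smaller, at 0.351 to 0.462. It was 0.562 to 1.29 for AMPA receptor genes and 1.40 for Grik5, so the raw distances do not compare the classes. The 12 libraries enter every distance alike.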

How the data were processed

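The 12 deposited tables give, for each RefSeq transcript, methylated non-CG calls as a whole count. Beside it the authors deposited total calls as an expected count, whole in 35.7% to 62.2% of cases; nothing in the sources used here says how it arose. Per the submitters' processing notes, BSMAP and the mm9 genome were used, with no version given. Lambda DNA was spiked in, per the labels' protocols; conversion rates were not used here.

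Totals were rounded. Names came from a RefSeq table of GRCm38.p6, used for names and miRNA sequences only, so gene positions are not printed. Of 36672 entries per table, 300 had no symbol and 1395 entries of 410 repeated identifiers were left out; each gene was read from its most covered transcript. Overlapping genes share calls.

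Group means on the log odds were fitted by quasi-binomial regression to all 12 libraries and 19826 genes, the dispersion moderated with limma 3.58.1 (squeezeVar) in R 4.3.3, with Benjamini-Hochberg adjustment over all genes. The procedure was tested on simulated data. Library medians were removed by an offset on the log odds. Figures were drawn with matplotlib 3.10.9, and tables made with pandas 2.3.3, numpy 2.4.6 and scipy 1.17.1 under Python 3.11.15. Wilson intervals are at 95%.

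The members and lists were chosen with earlier results of these data known. An item of a marker list is not reported here. All members are named. From the partner list the 3 largest and 3 smallest log2 odds ratios per mutant are named, with the 3 past the threshold once medians were removed and the hairpin calls, both added after values were seen, and 1 closest gene per member among genes with at least 0.5 times its calls. Chi-square per gene between libraries of a group was 2.73 or more, beyond sampling noise, so none was counted as a repeat. Same-numbered libraries of mutant and WT did not deviate together at P40 (r of -0.054 to 0.11 over 4 pairs). At 4 months r was -0.089 for both same-numbered pairs, which with 2 libraries a group are 1 value by construction. Numbers were not taken as pairs, though such correlations cannot exclude a pairing. Alternatives covered scale, filters, transcripts, centring, background, block, moderation and left-out libraries.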

Additional observations from a re-analysis of the deposited data

How the results depend on the processing

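The counts of members and partners that rose stayed within 1.5 times under the alternatives tried, except as follows. With library medians removed, 0 members were above the shift in either mutant, and 2 partners at P40 and 0 at 4 months. With only libraries covering Y-linked genes, 1 a group at 4 months, 0 members and 0 partners rose there. Leaving out a library gave 6 to 24 partners at 4 months, against 21. Removing medians, which makes values relative to the median gene, turned the sign of 8 members in each mutant: at P40 Gria1 -0.047, Gria2 -0.34, Gria3 -0.20, Gria4 -0.15, Grik1 -0.047, Grik3 -0.072, Grik4 -0.056 and Grik5 -0.11, and at 4 months Gria1 -0.18, Gria2 -0.37, Gria3 -0.32, Gria4 -0.067, Grik1 -0.047, Grik3 -0.055, Grik4 -0.016 and Grik5 -0.30. It did the same for Nptx1 (-0.42) and Cpt1c (-0.48) at P40 and Cacng8 (-0.28), Cacng3 (-0.31) and Cpt1c (-0.51) at 4 months, and with only the libraries covering Y-linked genes Cpt1c was -0.21 there. Once medians were removed, 42.1% of all tested genes were above 0 at P40 and 42.1% at 4 months.

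Alternatives for the members below the shift at P40, 2, were chosen after seeing the data: the count was 1 with pooled levels removed, 0 in libraries covering Y-linked genes, and 0 to 2 with a library left out. By medians of gene levels the gap between AMPA and kainate genes was -1.76 points in miR29 KO and -1.14 in P40 WT, and -2.06 in Dnmt3a mi5 and -1.08 in 4-month WT. Over all genes as measured, 2 to 35 fell at P40, against 10, and 1 to 14566 rose at 4 months, against 11659, the lowest in libraries covering Y-linked genes. With a replicate block, 8 members (Gria3 added) rose at P40 and 6 at 4 months, and 23 and 22 partners. Of all 19826 tested genes, 15212 rose at P40 and 12344 at 4 months in that fit. Whether the numbers mark pairs is not known. Where 1 library of a group was left, it is assumed to vary like the others. The number of calls limits Grik5 most, with a Wilson interval 0.340 points wide in Dnmt3a mi5 replicate 1.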
